A study of Homo sapiens with 3 samples.

Results

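The nuclear-encoded subunits of the respiratory chain were examined in RNA-seq libraries of 22Rv1, a human prostate carcinoma cell line. The genes were chosen by symbol alone, as protein-coding genes whose names begin with NDUFA, NDUFB, NDUFC, NDUFS, NDUFV, UQCR, COX4 to COX8 or ATP5, leaving out pseudogenes and the NDUFAF assembly factors. The rule gave 86 of the 27024 counted genes, namely 37 of complex I, 9 of complex III, 19 of complex IV, 19 of complex V and 2 readthrough genes that join a subunit gene to its neighbour. The wider study deleted an enhancer at the site of a prostate cancer risk variant, or edited that site to the risk A allele. It describes its unedited 22Rv1 cells as homozygous for the non-risk G allele. The 3 libraries analysed here are its wild-type (WT) group, labelled replicates 1 to 3, with the enhancer intact and no drug named in the labels. The cells were grown in RPMI1640 with serum. The labels do not say what separates the replicates, and the study's text speaks of control clones in its methods and of biological replicates in its results. The p-values below measure only the spread between these libraries, which may include differences between clones as well as technical ones. No other group is analysed here, and no condition is compared.

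The respiratory chain passes electrons from NADH and succinate to oxygen through complexes I to IV of the inner mitochondrial membrane, and complex V, the ATP synthase, uses the proton gradient that results. Most of its subunits are encoded in the nucleus and imported, and a few catalytic ones are encoded by mitochondrial DNA, which is not analysed here. Several nuclear subunits of complex IV exist as a widely expressed gene and a paralog known from heart, skeletal muscle, lung or testis. Bulk RNA of this kind gives an average over cells, in which fewer cells of a type and less RNA per cell cannot be told apart.

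Depth was between 35675670 and 38629080 reads per library. The 7 prostate luminal markers examined each exceeded 1 CPM (a gene's reads scaled to a common library total) in every library, with 9956 ± 200.3 normalized counts (SD, n = 3) for HOXB13. Of 7 striated muscle markers, MYH7, MYH2 and CKM had 0 reads in each library, while MB held 1425 ± 123.8 and TNNI3 306.6 ± 31.7 normalized counts. PRM1 and TNP1, made late in sperm formation, had 0 reads, and 2 of 5 testis germ cell markers passed 1 CPM. No leukocyte or endothelial marker in the table passed 1 CPM, and COL1A1 was the only fibroblast marker of 3 that did.

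Expression was called where every library reached at least 1 CPM. By this measure 77 of the 86 genes were expressed, or 89.5%, beside 63.8% of the 19142 protein-coding genes and 47.7% of all counted genes. All 37 complex I genes and all 9 complex III genes passed, with 13 of 19 for complex IV and 18 of 19 for complex V. The genes lie on 22 chromosomes, with 12 of them on chromosome 19. Together they took 1.64% of the reads in replicate 1, 1.63% in replicate 2 and 1.66% in replicate 3. Complex V alone held 0.665%, 0.658% and 0.670% in the same order.

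The 9 genes that were not expressed were mostly paralogs of complex IV subunits. COX4I2, COX6A2, COX7A1, COX7B2 and COX8C had 0 reads in each library. COX6B2 had 6, 6 and 5 reads in replicates 1, 2 and 3. The other 3 were ATP5MGL, a subunit g-like gene with 7, 4 and 8 reads, and the readthrough genes ATP5MF-PTCD1 and NDUFC2-KCTD14 with 0. A count of 0 allows up to 3 reads in a library, which corresponds to between 2.36 and 2.54 normalized counts. That limit covers counting error only. Reads in the shared part of a readthrough gene and its subunit gene can be left uncounted as ambiguous, so the 0 of NDUFC2-KCTD14 (chr11:77728017-77790911 in GRCh37) and the low count of NDUFC2 (chr11:77779343-77790908) within it are uncertain.

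In each complex IV family with a tissue-restricted paralog, the widely expressed gene carried nearly all of the signal. Levels of different genes are compared as normalized counts per kilobase (kb) of the canonical transcript, and each zero was replaced by its limit of 3 reads per library. COX4I1 held 16205, 15656 and 16679 normalized counts per kb in replicates 1, 2 and 3, at least 4126-fold higher than COX4I2, the form known from lung. COX6A1 was at least 4030-fold higher than COX6A2 and COX7A2 at least 1786-fold higher than COX7A1, both silent genes being the heart and skeletal muscle forms. The testis forms gave the same picture. COX8A was at least 5206-fold higher than COX8C and COX7B at least 409-fold higher than COX7B2. COX6B1 exceeded COX6B2, which was detected, by 3474-fold, 3228-fold and 4568-fold in the 3 libraries. All of these ratios exceed any spread between libraries, although 3 libraries of a single group allow no sign-flip test below p = 0.25, the smallest that an exact two-sided sign-flip permutation can give.

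**Figure D1:**
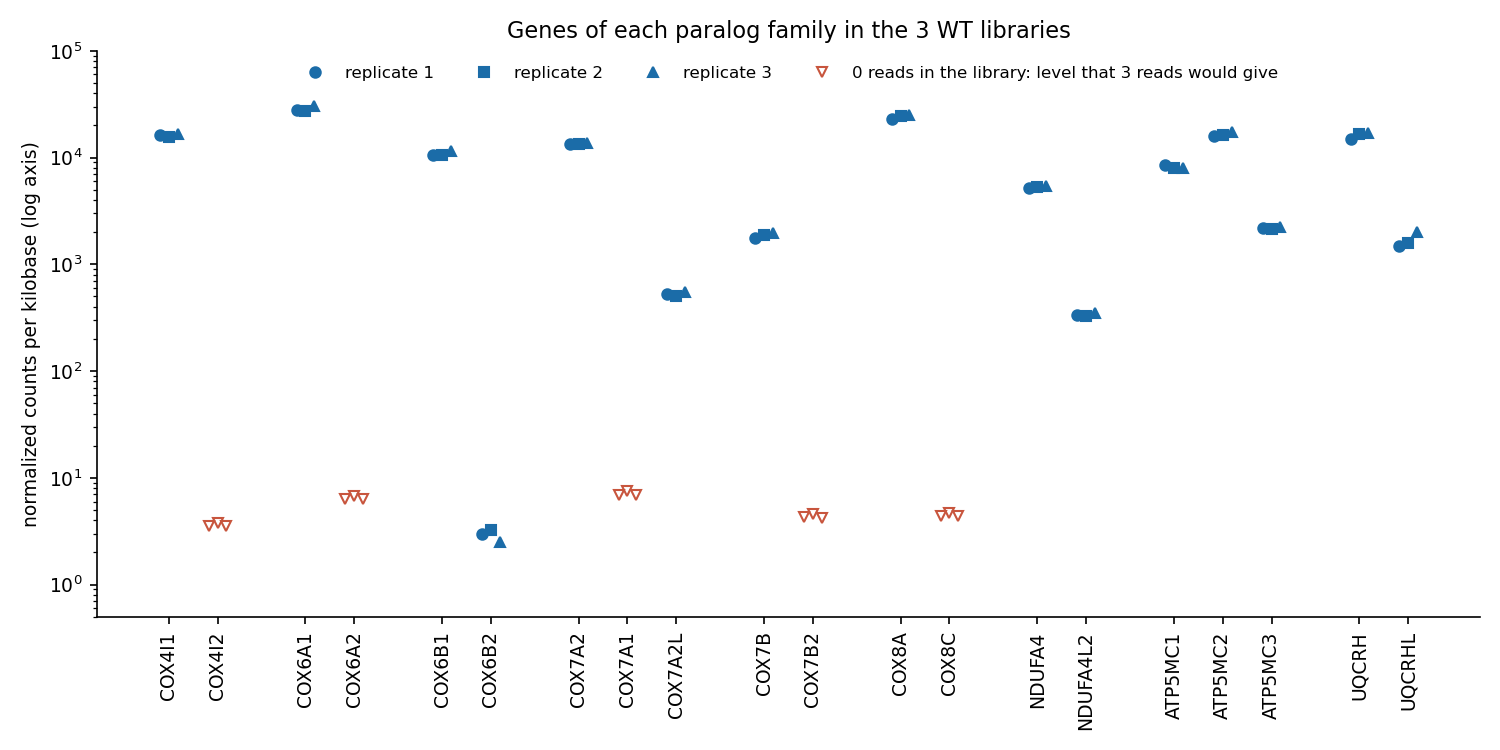
Normalized counts per kilobase (log axis) of each gene of the paralog families, with 1 symbol per WT replicate; open triangles mark libraries with 0 reads, drawn at the level that 3 reads would give. COX4I2, COX6A2, COX7A1, COX7B2 and COX8C lie at that limit, COX6B2 lies beside it with 5 or 6 reads, and the widely expressed partners lie between 1776 and 30173.

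The upstream sequences of 4 such pairs are shown because an expressed and an unexpressed gene encode the same subunit and each of the 8 genes had a single window in the promoter table. Each line gives the 100 bases before the RefSeq start on the transcribed strand (GRCh38.p14), taken from windows that span 250 bases before to 50 after the start. Capitals mark matches on either strand to CGCANGCG (the NRF1 motif), CCGGAAG (the ETS motif bound by GABPA), AAGATGGCG (YY1), TGACGTCA (CRE), GGGCGG (SP1), CCAAT or TATAAA.
COX6A1 (chr12:120438013-120438112, plus strand): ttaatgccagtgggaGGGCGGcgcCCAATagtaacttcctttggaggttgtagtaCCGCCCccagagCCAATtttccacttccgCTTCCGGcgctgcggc
COX6A2 (chr16:31428361-31428460, minus strand): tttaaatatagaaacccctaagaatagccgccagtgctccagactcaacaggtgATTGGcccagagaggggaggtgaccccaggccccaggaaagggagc
COX6B1 (chr19:35648223-35648322, plus strand): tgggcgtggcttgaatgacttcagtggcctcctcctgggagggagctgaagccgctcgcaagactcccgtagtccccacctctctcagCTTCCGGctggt
COX6B2 (chr19:55354720-55354819, minus strand): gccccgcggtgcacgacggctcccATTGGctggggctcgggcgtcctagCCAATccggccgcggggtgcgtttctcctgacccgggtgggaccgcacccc
COX7B (chrX:77899368-77899467, plus strand): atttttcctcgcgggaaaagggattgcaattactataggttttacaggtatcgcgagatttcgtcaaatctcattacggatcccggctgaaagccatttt
COX7B2 (chr4:46909246-46909345, minus strand): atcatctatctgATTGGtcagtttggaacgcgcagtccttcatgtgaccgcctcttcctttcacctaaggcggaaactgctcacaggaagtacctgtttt
COX8A (chr11:63974520-63974619, plus strand): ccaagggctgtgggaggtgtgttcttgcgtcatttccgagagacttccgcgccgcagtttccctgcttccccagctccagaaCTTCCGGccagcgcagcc
COX8C (chr14:93347082-93347181, plus strand): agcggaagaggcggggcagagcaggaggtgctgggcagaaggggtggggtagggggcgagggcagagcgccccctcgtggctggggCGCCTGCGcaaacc

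An ETS match, read on the opposite strand, stood 16 bases before the start of COX6A1, 12 before that of COX6B1 and 18 before that of COX8A. COX7B held none of these letters in the stretch shown, and its 300-base window held TATA matches at 138 and 136 bases before the start, which overlap on opposite strands, and a CCAAT match only. None of the windows of COX6A2, COX6B2, COX7B2 or COX8C held the ETS letters. COX8C held an NRF1 match 14 bases before its start. The number of CpG dinucleotides in the whole window was 22, 16, 14 and 18 for COX6A1, COX6B1, COX7B and COX8A, and 5, 31, 8 and 10 for COX6A2, COX6B2, COX7B2 and COX8C. A match is a string of letters and not a shown binding site, and these data hold no measure of binding.

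Among the expressed subunit genes, 63 of 77 (81.8%) had a promoter window, in 76 windows. The NRF1 letters stood in 32.9% of these windows, beside 16.6% of the windows of all expressed protein-coding genes and 10.0% of all promoter windows. The shares in the same order were 26.3%, 16.95% and 10.3% for the ETS letters and 11.8%, 3.43% and 1.75% for the YY1 letters. SP1 letters were as frequent in the subunit windows (64.5%) as in those of expressed genes (66.5%), and CCAAT stood in 34.2% against 35.0%. TATAAA was found in 7.89% and 6.01%, and CRE in 5.26% and 2.75%, the former from 4 windows. The motifs were picked from textbook knowledge of these genes, with earlier results of these data known. Windows of the same gene overlap in places, and no test was made on these shares.

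Complex IV had the highest median level and complex III the lowest. The median over expressed members was 10821 normalized counts per kb for complex IV, 5992 for complex V, 4350 for complex I and 3505 for complex III. The medians taken within each library varied little, with an SD over libraries of 116.4, 195.2, 66.3 and 42.3 respectively. The place of complexes I and III depended on the transcript length used: with the median length of a gene's protein-coding transcripts the medians were 10821, 8343, 4422 and 7816. With the union of exons they were 3135, 2524, 1115 and 2130, so complex IV led and complex V came next with each of the 3 lengths.

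Relative to other genes the subunits were high. Their median was 4983 normalized counts per kb, beside 315.1 for all expressed genes. Of the 76 members with a canonical transcript, 61 stood at or above the 90th percentile of expressed protein-coding genes, 69 at or above the 75th and 75 at or above the median, with NDUFC2 the exception. The transcripts were also short, with a median of 740.5 bases beside 3332 for all expressed genes, and a level per kb divides by that length. Counts before division by length had a median of 4553 normalized counts for members and 1113 for all expressed genes.

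**Figure D2:**
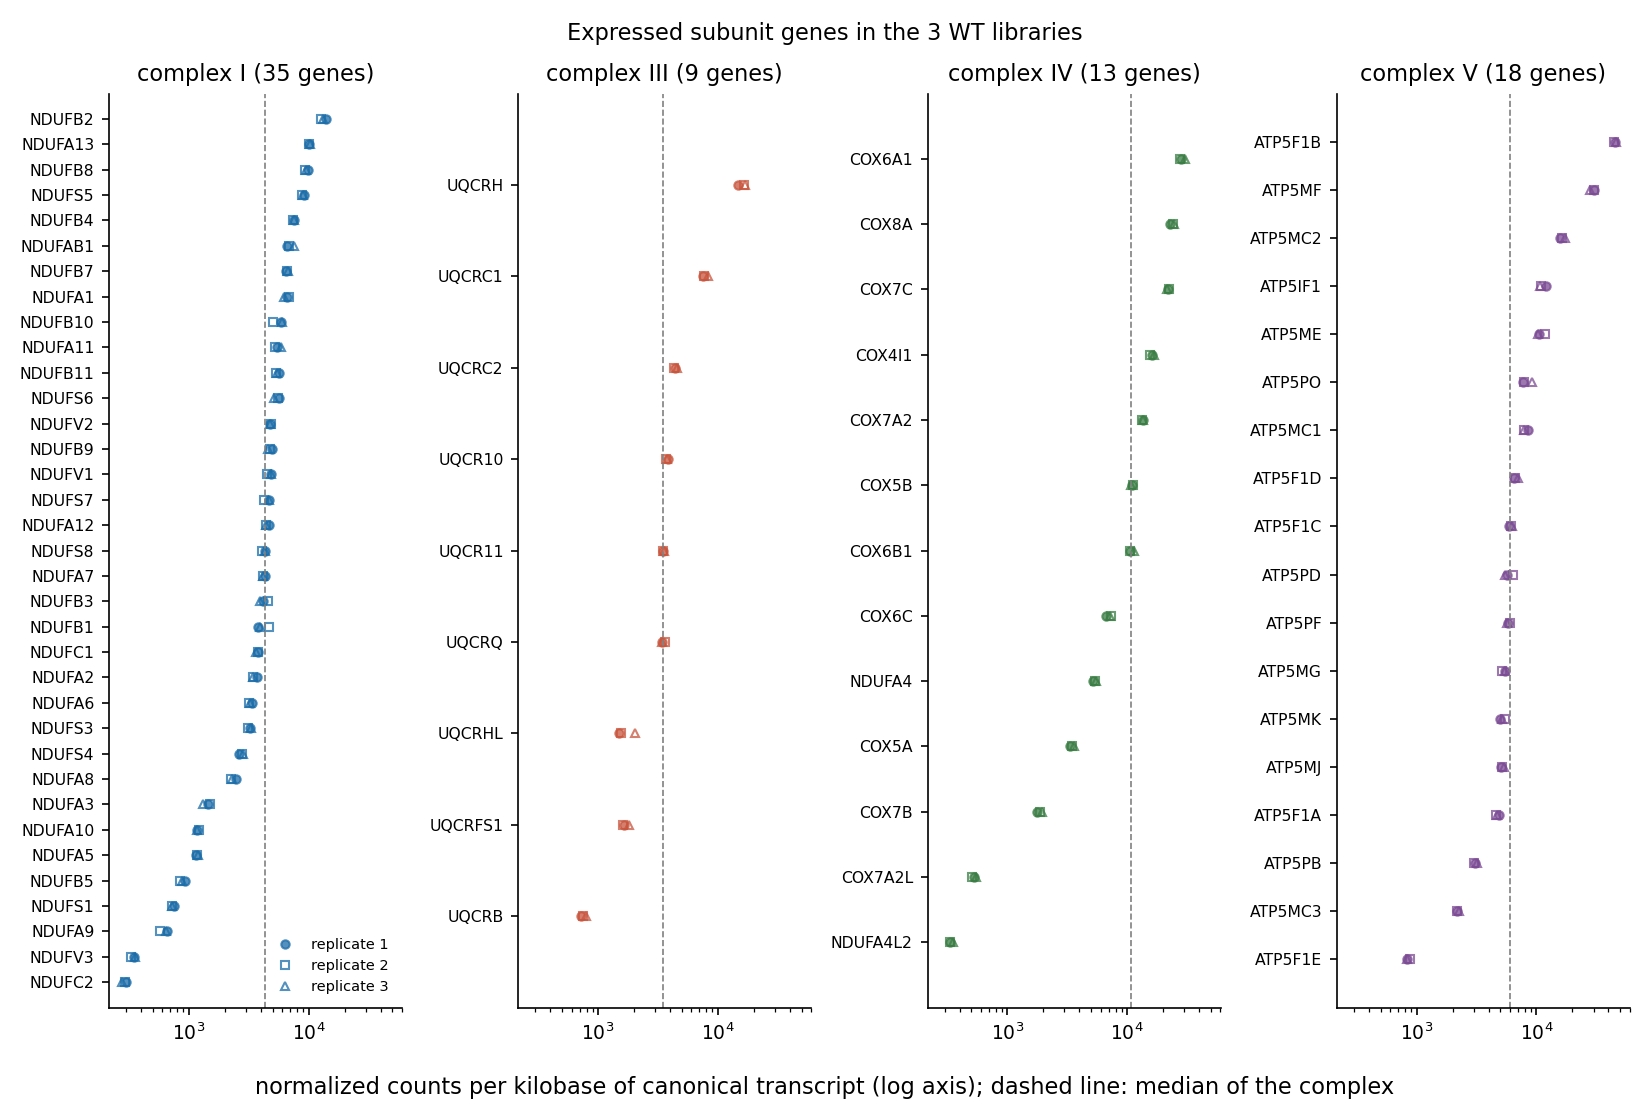
Normalized counts per kilobase of canonical transcript (log axis) for each expressed subunit gene, by complex, with 1 symbol per WT replicate and the median of each complex as a dashed line. Levels run from 289.6 for NDUFC2 to 45553 for ATP5F1B, and the 3 symbols of a gene lie close together beside the distance between genes. NDUFB6 has no canonical transcript and is not drawn, and 1 other gene of complex I is left out.

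In complex I, which oxidises NADH and reduces ubiquinone, levels ran from 289.6 to 13267 normalized counts per kb. With the canonical length the 3 highest genes were accessory subunits, while with the median length the core subunit NDUFV1 came second at 10442, after NDUFB2 at 11446. NDUFB2 held 13825, 12788 and 13187 normalized counts per kb in replicates 1, 2 and 3, NDUFA13 held 10117 ± 54.7 and NDUFB8 held 9560 ± 236.7 (SD, n = 3). At the lower end stood NDUFA9 with 624.5 ± 41.3, NDUFV3 with 343.5 ± 10.7 and NDUFC2 with 289.6 ± 10.6. In the order of the 36 genes, 17 of 35 neighbouring pairs had overlapping library ranges, so much of the order is not resolved. Ranks depended on the length too. With the median length NDUFA11 went from rank 11 to 34 and NDUFA9 from 34 to 6, while NDUFB2 stayed at 1.

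The 7 nuclear core subunits of complex I carry its flavin and iron-sulfur clusters or form the ubiquinone site. The subunits NDUFV2 (4762 ± 32.6 normalized counts per kb) and NDUFV1 (4706 ± 194.2), where NADH delivers its electrons, did not separate from each other, nor NDUFV1 from NDUFS7 (4534 ± 253.9). NDUFS8 stood at 4231 ± 141.8 and NDUFS3 at 3219 ± 109.2. NDUFS1, the large iron-sulfur subunit, was lowest at 728.9 ± 14.2, a value that rests on its canonical transcript of 11660 bases. Its level was 3567 with the median transcript length, and its count before division by length was 8499 ± 165.6. NDUFA9, on a canonical transcript of 8356 bases, likewise stood at 624.5 per kb with that length and at 8128 with the median length.

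Accessory groups had medians on both sides of that of the core. The median was 4534 normalized counts per kb for the 7 core subunits, 3498 for the 13 NDUFA genes, among them the acyl carrier protein NDUFAB1 (6962 ± 482.9), and 5565 for 10 NDUFB genes of the membrane arm. Median levels of the remaining accessory genes were 4112 for the 4 of the S and V groups and 2018 for NDUFC1 and NDUFC2. The ranges of these groups overlap widely.

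Complex III passes electrons from ubiquinol to cytochrome c. UQCRH, the hinge protein beside cytochrome c1, was highest with 14754, 16553 and 16824 normalized counts per kb in replicates 1, 2 and 3. The core proteins UQCRC1 (7816 ± 374.6) and UQCRC2 (4408 ± 103.4) followed, and UQCRFS1, the Rieske iron-sulfur protein that takes the electrons, stood at 1691 ± 100.6. The small subunits UQCR10, UQCR11 and UQCRQ lay between 3469 and 3770. UQCRB was lowest at 752.9 ± 35.0, on a canonical transcript of 8459 bases, and reached 9875 with the median length.

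UQCRHL is an intronless copy of UQCRH. It had 411.6, 432.4 and 556.6 normalized counts, or 9.51% ± 1.07 (SD, n = 3) of the pair's signal per kb. All of its transcript aligned to UQCRH at 98.6% identity, so part of these reads may belong to UQCRH (chr1:46769370-46782448 in GRCh37), and how multi-mapped reads were counted is not given in the sources used here. The share was 2.31% with the median transcript length.

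Complex IV, cytochrome c oxidase, reduces oxygen. COX6A1 held 27933, 27502 and 30173 normalized counts per kb, and the libraries of the next genes, COX8A at 24027 ± 977.5 and COX7C at 21882 ± 502.5, did not overlap with it or with each other. COX4I1, which binds adenine nucleotides, followed at 16180 ± 512.0 and COX7A2 at 13447 ± 118.4. COX5B (10914 ± 212.4) and COX6B1 (10821 ± 572.2) were the only neighbouring pair of 12 whose libraries overlapped. Further down the order stood COX6C at 7035 ± 288.7, NDUFA4 at 5332 ± 127.5, COX5A at 3478 ± 133.5 and COX7B at 1863 ± 85.6.

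The lowest expressed genes of complex IV were paralogs. COX7A2L, which joins complexes III and IV in supercomplexes, held 528.5 ± 20.03 normalized counts per kb and 3.78% ± 0.106 of the signal of its family, a share of 6.24% with the union of exons and 5.98% with the median transcript length. NDUFA4L2, a paralog of NDUFA4 known to be induced by low oxygen, held 316.0, 311.4 and 331.4 normalized counts. NDUFA4 therefore made up 94.02% ± 0.139 of that pair per kb, and the share was 96.5% with the union of exons as length. COX6A1 has a processed pseudogene, COX6A1P2, that matches 61.5% of its transcript at 98.8% identity, and NDUFV2 has one, NDUFV2P1, over 81.0% at 98.1%, so their counts are uncertain to that extent.

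Complex V had the gene with the most reads of all members. ATP5F1B (chr12:57031959-57039768 in GRCh37), the catalytic beta subunit, held 79875, 78507 and 81999 normalized counts in replicates 1, 2 and 3 and ranked 7th of all 27024 counted genes by count. Per kb it ranked 26th of the 12181 expressed protein-coding genes with a length. Its level was 45553 ± 1000 normalized counts per kb. ATP5F1A, the alpha subunit that alternates with it in the F1 head, ranked 80th by count with 27374 ± 885.3 and held 4752 ± 153.7 per kb on a canonical transcript of 5761 bases. With the median transcript length it reached 30082, and ATP5F1B reached 93606. The size of the gap between alpha and beta thus depended on the length used, while beta was higher by count and with both lengths. The gamma subunit ATP5F1C stood at 6127 ± 151.4 per kb, the delta subunit ATP5F1D at 6721 ± 306.2 and the epsilon subunit ATP5F1E was lowest of the complex at 853.8 ± 25.6.

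The stalk and membrane subunits lay closer together. ATP5MF, subunit f, was second in the complex with 29673 ± 1253 normalized counts per kb. The 4 peripheral stalk genes ran from 3082 ± 80.3 for ATP5PB to 8294 ± 785.2 for ATP5PO, the subunit that links the stalk to the F1 head. ATP5ME, subunit e, stood at 10898 ± 841.3, and ATP5MG, ATP5MK and ATP5MJ lay between 5204 and 5364. ATP5IF1, which inhibits the enzyme when it runs in reverse, held 11925, 11011 and 10759 per kb, and its libraries overlapped with those of ATP5ME.

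The c ring subunit is encoded by 3 genes whose mature proteins are known to be identical. ATP5MC2 held 61.5% ± 1.59 (SD, n = 3) of their signal per kb, ATP5MC1 30.3% ± 1.54 and ATP5MC3 8.20% ± 0.0509. The order of the mean shares held with each of the 3 lengths, and the size of the shares depended on them. With the median length the shares were 38.9%, 37.1% and 24.0%, and with the union of exons 43.5%, 32.7% and 23.9%. With the median length ATP5MC1 stood above ATP5MC2 in replicate 1, with 5475.1 normalized counts on 503.5 bases beside 10034.6 on 954. The library ranges of ATP5MC2 and ATP5MC1 thus overlapped with that length, and their order is not resolved there. The counts before division by length were 10424 ± 479.1 for ATP5MC2, 5251 ± 194.1 for ATP5MC1 and 5690 ± 110.4 for ATP5MC3.

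Between the 3 WT libraries most subunit genes varied by a few percent. The SD over libraries was a median of 3.70% of the mean for the 77 expressed genes, with a range of 0.541% to 16.8%, beside a median of 4.88% for all expressed genes. NDUFA13 varied least, with 5242.9, 5269.6 and 5299.9 normalized counts. The ratio of the highest to the lowest library had a median of 1.07 and was under 1.2 in 75 of 77 genes. Of the genes above 100 mean reads the largest ratios were 1.35 for UQCRHL, 1.23 for NDUFB1, 1.17 for ATP5PO, 1.17 for NDUFB10 and 1.17 for NDUFB3.

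Each gene's 3 counts were tested against the library sizes with a chi-square test of homogeneity, adjusted by Benjamini-Hochberg over the 14646 genes that averaged 10 reads or more. At 0.05, 55 of 77 members differed between libraries (71.4%), and the share of all tested genes was 41.9%. The members had more reads, with a median mean of 5643 beside 1380 for all expressed genes, and a deeper gene passes this test on a smaller difference. The count was lower without any of the libraries, being 37 without replicate 1, 36 without replicate 2 and 28 without replicate 3, and that of all genes went from 6141 to 3950, 3323 and 3447. Among genes with a mean of 10 to 50 reads this statistic, per degree of freedom, already averaged 3.49, where counting error alone gives 1. With the statistic divided by that value, 15 members differed (19.5%), beside 3.47% of all genes. In the 7572 genes that averaged 1000 reads or more, 17 of 74 members did (23.0%), beside 7.32%. With edgeR's trended dispersion in the variance none of the 77 passed, beside 0.348% of all genes. At an unadjusted p under 0.05 that test gave 8 members, beside 709 of the 14646 tested genes. The dispersion is a trend fitted over many genes, and the divisor of 3.49 is an average over shallow ones. Both were estimated from these same 3 libraries, so the spread between them is partly in the variance already. Neither setting is therefore an independent check of the other calls.

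**Figure D3:**
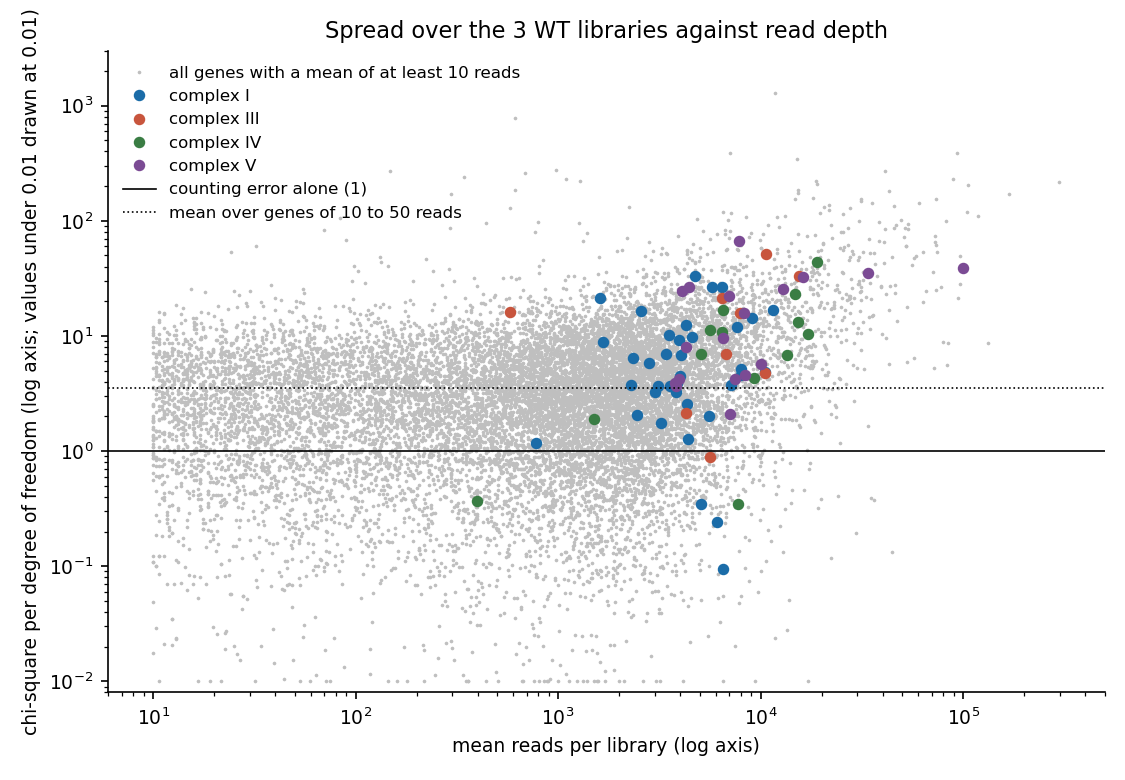
Chi-square per degree of freedom over the 3 WT libraries (log axis) against the mean reads per library (log axis), for all tested genes in grey and for the expressed subunit genes in the colour of their complex. The solid line at 1 marks counting error alone and the dotted line at 3.49 the mean over genes of 10 to 50 reads; the deepest genes, grey and coloured, lie mostly above both lines.

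The 15 genes that passed the scaled test were 8 of complex V, 3 of complex I, 2 of complex III and 2 of complex IV. ATP5PO (chr21:35275757-35288118 in GRCh37) changed most by this test, with 5899.4, 5955.9 and 6954.7 normalized counts and an adjusted p of 7.0e-07. Replicate 3 stood above the other two there. UQCRH had 7922.8, 8889.0 and 9034.7 normalized counts (adjusted p = 3.9e-05), with replicate 1 low. For COX6A1, replicate 3 was high with 16202.7 beside 15000.1 and 14768.7 (adjusted p = 0.00029).

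The remaining genes of this group differed in various libraries. Replicate 3 was highest for UQCRC1, ATP5MC2, NDUFAB1, ATP5F1B, NDUFB10 and COX8A, and lowest for ATP5MF, ATP5IF1, ATP5PD and ATP5ME. NDUFB10 had 3948.7, 3430.7 and 4045.0 normalized counts (adjusted p = 0.0040) and NDUFA9 had 5448.3, 4821.1 and 5384.9 (adjusted p = 0.019), both low in replicate 2. ATP5PD had 3484.2, 3871.6 and 3345.1 and ATP5ME 3171.3, 3595.7 and 3138.8, both high in replicate 2. ATP5F1A was highest in replicate 1, with 28302.4 normalized counts beside 26539.2 and 27281.2 (adjusted p = 0.0024). All p-values in this paragraph are from the scaled chi-square over all tested genes.

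Deviations between libraries varied with transcript length and GC content across all expressed genes. Spearman's rho between a gene's deviation and its length was -0.09, 0.32 and -0.23 in replicates 1, 2 and 3 over 12823 genes, which share libraries and are not independent, and rho with GC content was 0.20, -0.23 and 0.05. After a cubic trend in both was removed, 11 of 77 members passed the scaled test (14.3%), beside 1.76% of all genes. The members had more reads than expressed genes as a whole, and this comparison was not repeated among genes of at least 1000 reads. ATP5F1A, ATP5MC2, ATP5PO, COX6A1, COX8A, NDUFA9, NDUFAB1, NDUFB10, UQCRC1 and UQCRH were among both sets, and UQCRB was added. By complex, the calls went from 8 to 3 for complex V, stayed at 3 for complex I and 2 for complex IV, and went from 2 to 3 for complex III.

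The members' deviations were small in each library. The deviation of a gene is its log2(CPM + 1) minus the gene's mean over the 3 libraries. Its median over the 77 genes was 0.0004, -0.02 and 0.01 in replicates 1, 2 and 3, beside 0.001, -0.002 and 0.001 over all expressed genes. Replicate 2 was the lowest library for 33 of the 77 (42.9%), beside 35.7% of all expressed genes, and the highest for 20.8%, beside 33.6%. Replicate 3 was the highest library for 45.5%, beside 34.1%, and replicate 1 for 33.8%, beside 32.3%.

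The complexes leaned towards different libraries. For complex I the median deviations were 0.03, -0.03 and -0.01, and replicate 1 was the highest library in 21 of 37 genes. For complex III they were -0.04, -0.02 and 0.07, with replicate 3 highest in 7 of 9 genes, and for complex IV -0.03, 0.005 and 0.04, with replicate 3 highest in 10 of 13. Complex V gave -0.02, -0.02 and 0.003, with replicate 3 highest in 8 of 18. Over all expressed genes replicate 3 was highest in 34.1% and replicate 1 in 32.3%. With library totals or DESeq2 size factors in place of TMM every one of these 12 medians kept its sign, and after removal of the length and GC trend 11 did, the exception being complex V in replicate 3 at -0.003. Genes of a complex share their libraries and are not replicates, so no test was made of these leanings.

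**Figure D4:**
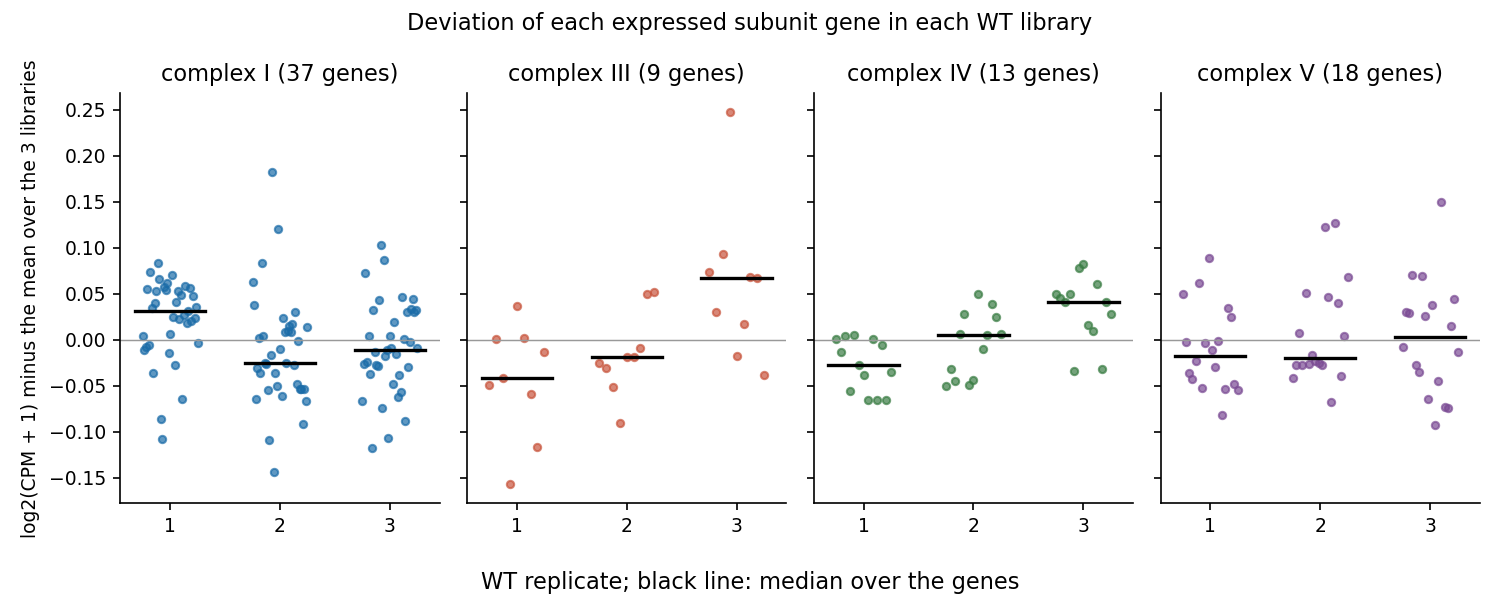
Deviation of each expressed subunit gene from its mean over the 3 libraries, as log2(CPM + 1), by complex and WT replicate, with the median over the genes as a black line. Points for complexes III and IV lie mostly above 0 in replicate 3 (7 of 9 and 11 of 13 genes), and those for complex I above 0 in replicate 1 (27 of 37). The share above 0 was not taken over all expressed genes. CYC1, a complex III subunit outside the naming rule and highest in replicate 1, is not drawn.

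Other genes of the pathway were taken from 8 lists of 69 genes, of which 68 were expressed. The chi-square test called 28 of the 69 (40.6%), beside 41.9% of all tested genes, and the scaled test called 1, CYC1 (1.45%), beside 3.47%. The 4 subunits of complex II, which is succinate dehydrogenase and lies outside the naming rule, stood at 2970 ± 80.5 normalized counts per kb for SDHA, 3713 ± 204.9 for SDHB, 5758 ± 79.2 for SDHC and 3927 ± 44.9 for SDHD. Their median of 3820 lay between those of complexes III and I. CYC1, the cytochrome c1 subunit of complex III, held 10855 ± 558.3 with replicate 1 highest (13695.0 normalized counts beside 12510.1 and 12579.7, scaled adjusted p = 0.00027). CYCS, cytochrome c itself, held 3650 ± 52.8.

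Assembly factors and regulators were lower. Median levels per kb were 1098 for 14 assembly factors of complex I, 797.5 for 6 of complex III, 629.6 for 22 of complex IV and 683.5 for 3 of complex V. The 10 genes of mitochondrial DNA transcription and replication had a median of 515.3. Of 8 regulators of nuclear respiratory genes, 7 were expressed. ESRRA, an orphan nuclear receptor, was highest with 2339 ± 106.1 normalized counts per kb, followed by YY1 with 884.9 ± 18.4 and PPRC1 with 581.9 ± 13.5. The NRF2 subunits GABPA and GABPB1 held 442.9 ± 15.6 and 235.2 ± 17.2, NRF1 held 323.0 ± 8.10 and PPARGC1B held 144.9 ± 9.94. PPARGC1A, a coactivator of mitochondrial biogenesis, had 10 reads in each library and was not called expressed.

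**Figure D5:**
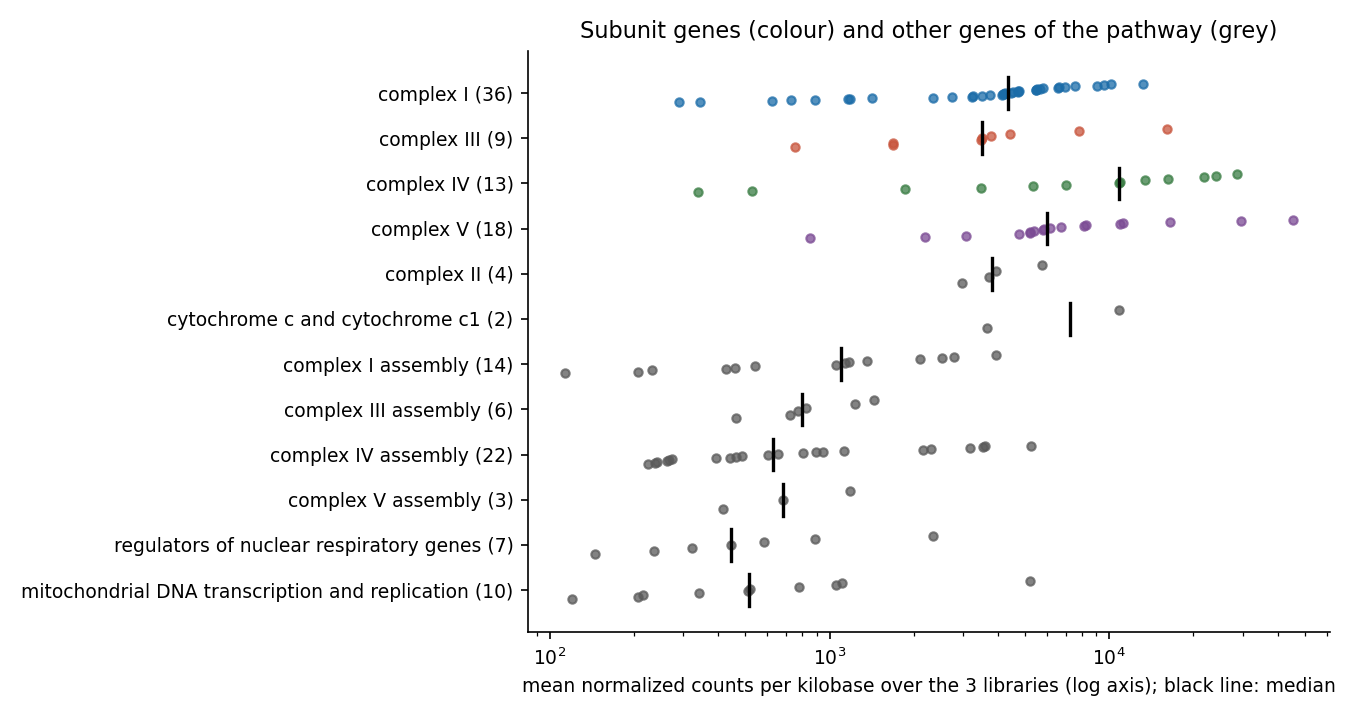
Mean normalized counts per kilobase over the 3 libraries (log axis) of each expressed gene, for the complexes in colour and for 8 lists of other pathway genes in grey, with the number of genes in brackets and the median as a black line. Medians of the complexes lie between 3505 and 10821, and those of the assembly, regulator and mitochondrial DNA lists between 442.9 and 1098.

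Of the 86 members, 55 overlap another annotated gene and 35 overlap it on the same strand, and counting by strand is not given in the sources used here, so reads of such partners cannot be told apart in the deposited values.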

How the data were processed

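RNA-seq values of 3 WT libraries of 22Rv1 cells were analysed. The authors aligned 150-base paired-end reads to hg19 (HISAT2), assigned them to genes (HTSeq) and scaled the counts (DESeq2). The GENCODE release is not given in the sources used here. Each deposited value is a signal: the count of a gene over the size factor of its library (1.27, 1.18 and 1.27), kept to 1 decimal. Whole reads were recovered from the step of each library, which was estimated from the same values. Of values above 0, 100% were whole within 0.05 for rounding plus an allowance for the step, which grows with the count. The analysis planned for either raw or normalized counts, so tests used the recovered reads and levels the deposited signal.

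Adjacent rows identical in all libraries were merged, which took 29000 rows to 27024 genes, and NDUFA3, NDUFA6, ATP5IF1, NDUFS1 and NDUFS3 each absorbed repeats. Symbols, lengths and GC content came from GENCODE v44 lifted to GRCh37, and 86.3% of identifiers matched. Library sizes were scaled by TMM (edgeR 4.0.16, R 4.3.3), and size factors of DESeq2 1.42.0 were an alternative. Tests used scipy 1.17.1, numpy 2.4.6 and pandas 2.3.3, and were tested on simulated data. Copies were searched with minimap2 2.31, at 98% identity over 50% of a transcript. Promoter windows came from RefSeq (GRCh38.p14), and 68 of the 86 members (79.1%) matched by symbol. Recovered depth was 38252744, 35675670 and 38629080 reads, and intervals and limits cover counting error only.

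The members, lists and motifs were chosen with earlier results of these data known. Genes were named by rule: the 3 highest and 3 lowest of each complex, core and redox subunits, paralog families, unexpressed members, members passing the scaled test and the 5 largest ratios, plus complex II, CYC1, CYCS and regulators of the other lists. Values of 2 genes that this rule or the marker list names are not reported here.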

Additional observations from a re-analysis of the deposited data

How the results depend on the processing

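The count of 77 expressed members was 79 at 0.1 CPM and 77 at 5 CPM, with total-count sizes and without each replicate in turn. Of the members, 55 differed between libraries by the chi-square test, and 53 to 56 did so with other size factors, other minimums of 1 or 50 reads, unmerged rows or fewer genes. Over all genes the count ran from 5599 to 6827 with those size factors, minimums and unmerged rows, beside 6141 in the main setting. The count of members was 15 with the scaled statistic and 11 with the length and GC trend removed as well. Among genes of at least 1000 reads it was 17. It was 0 with edgeR's trended dispersion and 28 to 37 with 1 replicate left out. The dispersion and the scale were both estimated from the same 3 libraries. The count over all genes, 6141, was 508, 258, 554 and 51 under the same 4 settings. With 1 replicate left out it was 3323 to 3950. At an unadjusted p under 0.05 the dispersion test gave 8 members, beside 709 of all tested genes, and the chi-square test 62 members. No count over all genes was taken for the latter, so those 62 cannot be set against the genes as a whole. The threshold of 1000 reads and the median transcript length were chosen after seeing the data.

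The median level of complexes I, III, IV and V was 4350, 3505, 10821 and 5992 normalized counts per kb. With the union of exons as length it was 1115, 2130, 3135 and 2524, and with the median length of coding transcripts 4422, 7816, 10821 and 8343. Without a replicate it ran from 4339 to 4417, 3504 to 3530, 10491 to 10900 and 5921 to 6066. The lower values under the union follow from the setting itself, which joins the exons of every transcript. Shares within families moved likewise. With the union of exons they were 96.5% for NDUFA4 and 3.51% for NDUFA4L2, 93.8% for COX7A2 and 6.24% for COX7A2L, 32.7%, 43.5% and 23.9% for ATP5MC1, ATP5MC2 and ATP5MC3, and 96.8% and 3.22% for UQCRH and UQCRHL. With the median length they were 94.02% and 5.98% for COX7A2 and COX7A2L, 37.1%, 38.9% and 24.0% for the c ring genes and 97.7% and 2.31% for UQCRH and UQCRHL. The median deviation of the members in each library moved by less than the SD of the 3 library medians under every setting run, and in replicates 1 and 3 it changed sign once each, to -0.0008 with DESeq2 size factors and to -0.0008 without replicate 2. All 308 recomputed normalized counts of single members stayed within their spread over libraries. This follows largely from the settings and is no check of the levels. A mean with 1 replicate left out always lies within the range of the libraries, and TMM is nearly the same scaling. No paired analysis was possible because only 1 group was analysed. Depth limits the 0 counts, which allow up to 3 reads per library, and 3 libraries give no test of a condition.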
